A study of Mus musculus with 2 samples.

Results

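Epithelial antimicrobial proteins were examined in the skin of Pla2g2f-transgenic mice, through a list of 10 genes. The list holds 5 beta-defensins (Defb1, Defb3, Defb4, Defb6 and Defb14) and 5 other proteins of antimicrobial defence (Slpi, Lcn2, Camp, Saa3 and Ltf). The genes were chosen by name, and their probes were found on the array through its gene names or through the accession beside them. A probe of its own was found for 9 of the 10 genes, 12 probes in all, among 41167 probes that are not controls. Only 4 of the 9 genes cleared background in at least 1 channel of array 1, where 10456 genes or transcripts did so in all.

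The RNA came from whole skin of 25-day-old Pla2g2f-Tg/+ mice and of littermate controls, both on a C57BL/6 background. Pla2g2f encodes a secreted phospholipase A2. RNA of 4 mice was pooled for each genotype and hybridised to 2 arrays that each read both pools. On array 1 the transgenic pool carried the dye Cy5 and the control pool Cy3, and on array 2 the dyes were exchanged. No source used here names the promoter that drives the transgene. Separate pools for the arrays are not mentioned in the labels. Each genotype was therefore counted as 1 sample and no p-value was computed. Array-to-array differences are given as the error and cover technical spread alone, since mice were not measured singly.

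Beta-defensins are small cationic peptides, held together by disulphide bonds between cysteines, that epithelial cells release and that damage microbial membranes. In mice several of them lie in clusters on chromosome 8. Epidermis makes little of most antimicrobial proteins at rest and more after wounding or during inflammation, when cytokines such as interleukin-17 and interleukin-22 induce them. Slpi encodes an inhibitor of leukocyte serine proteases, Lcn2 a lipocalin that binds bacterial siderophores, and Camp the mouse cathelicidin. Saa3 encodes an acute phase protein and Ltf the iron-binding protein lactoferrin. Camp, Ltf and Lcn2 proteins are also stored in the granules of neutrophils.

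Defb6 was the antimicrobial gene with the largest ratio among the 4 that cleared background. By the program's processed signals, the Defb3 probe was at least 1.86-fold and the brighter Slpi probe at least 1.45-fold higher on array 1. Each had a control signal that was not well above background. Both calls were lost with array 1 corrected by normexp and loess, where the mean log2 ratios were 0.92 and 0.97. On array 1 itself the log2 ratios were then 0.34 and 0.33, less than the folds stated. Defb1 had 2 overlapping probes that gave different ratios. Lcn2, Camp, Saa3 and Ltf did not clear background in either channel. Genes were called by size, as at least 2-fold apart the same way on each array, and 3 of the 4 genes that cleared background were called higher and 0 lower. Over all 10456 genes that cleared background, 3.73% were called higher and 1.68% lower (390 and 176 genes). The counts for the antimicrobial genes rest on a filter that can favour higher genes. Defb3 and Slpi entered through the transgenic channel alone, and of the 565 genes that entered in this way 26% were called higher. Defb6 and Defb1 cleared background in both channels, and of the 9183 genes whose brightest probe did so, 2.65% were called higher and 0.937% lower.

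**Figure D1:**
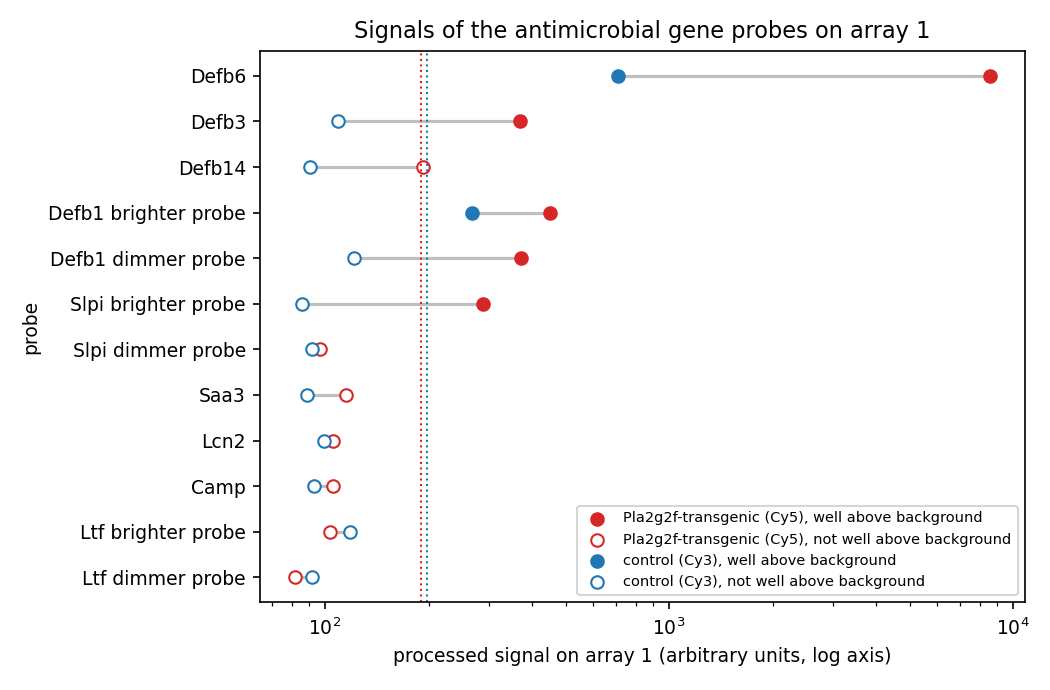
Processed signal of each of the 12 probes on array 1 (arbitrary units, log axis), with the transgenic channel in red and the control channel in blue. Filled points were well above background, and dotted lines mark the lowest signal well above background in each channel (190 for transgenic, 198 for control). Only Defb6 stands far above these lines, with a transgenic signal of 8564 against a control signal of 709.

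The scale of the arrays bears on every value. Spike-in control RNAs, followed by 10 probes, had a median log2 ratio of 0.46 towards the transgenic pool, while the median gene that cleared background lay at -0.0079. When both arrays were centred on the spike-ins, 175 genes were called higher and 457 lower, or 1.67% and 4.37%. Values below are on the arrays' own scale unless stated. The probe for Pla2g2f gave log2 ratios of 0.54 and 0.34 on arrays 1 and 2, short of 2-fold on each. Its mean of 0.44 lay close to the spike-in median of 0.46. Of the basal keratinocyte genes fixed as markers of skin, 9 of 9 cleared background, with Krt5 at a signal of 123285 in the transgenic and 84000 in the control channel of array 1. Skin RNA does not tell fewer cells of a type from less RNA per cell.

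Defb6 (NM_054074) encodes a beta-defensin. Its probe lies on chromosome 8 at chr8:19228067-19228126 (mm8, plus strand). Its processed signal on array 1 was 8564 in the transgenic channel and 709 in the control channel, and both were well above background. The scanner's mean intensities of the same spot were 536 and 87.7, each beside a local background of 35. Both channels therefore rose above their local background, the transgenic one far more. A spot at background can do so too in the control channel, as Camp did with 53.9 beside a local background of 36. Array 1 gave a log2 ratio of transgenic over control of 3.59 and array 2 one of 3.44, a mean of 3.51 and an 11.4-fold ratio. The 2 arrays differed by 0.16 log2 units, against a median absolute difference of 0.23 over all genes that cleared background. The error that the scanner program assigned to the ratio on array 1 was 0.39 log2 units. By its mean ratio Defb6 ranked 10 of 10456 genes, and 4 of the 9183 whose brightest probe cleared background in both channels. With the spike-ins as the scale its mean was 3.06. With array 1 corrected by normexp and loess it was 2.96, and the call was kept in each of these settings.

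Defb3 (NM_013756) encodes a beta-defensin. The processed signal of its probe on array 1 was 368 in the transgenic channel and 109 in the control channel, and only the transgenic one was well above background. The scanner's mean intensities of the spot were 59.9 in the transgenic and 55.7 in the control channel, each beside a local background of 35. The ratio of this dim spot therefore rests on how each channel's background was taken off. Array 1 gave a log2 ratio of 1.75 and array 2 one of 1.51, a mean of 1.63. Taking the lowest well-above-background signal in place of the control value, the probe was at least 1.86-fold higher on array 1 by the program's processed signals. With array 1 corrected by normexp and loess the log2 ratio on that array was 0.34, the mean was 0.92 and the call was lost. Centred on the spike-ins, the values were 1.29 and 1.05 and the call was kept.

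The value of the Defb3 probe cannot be assigned to Defb3 alone. The array's own annotation lists 2 other accessions for it, NM_019728 of Defb4 and NM_153108 of Defb8, and Defb4 has no other probe in the scanner file. Defb4 is therefore represented only through this shared probe. The probe covers the start of the coding region, where the signal peptide is encoded and where members of the cluster resemble each other. All 12 probes were compared with the start regions of genes in RefSeq (32851 windows, from 250 bases before to 50 after each start site, GRCm38.p6). A match had to span at least 20 bases without gaps at 80% identity or more. The Defb3 probe matched 6 windows and the other probes matched none (0). Probes further along their transcripts than the windows reach could not match even their own gene, so the 0 does not show that those probes are specific. The sequences are shown because they set what the Defb3 value can mean. Capitals mark bases that differ from the probe, and positions in the substitutions below are counted from 1 at the probe's 5′ end, with the probe's base first.
Defb3 probe, chr8:19293341-19293400 (mm8, plus strand): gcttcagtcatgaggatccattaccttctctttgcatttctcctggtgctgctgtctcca
Defb46 start, chr8:19239907-19239965 (GRCm38.p6, plus strand): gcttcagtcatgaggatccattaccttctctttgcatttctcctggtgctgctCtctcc
Defb5 start, chr8:19247583-19247641 (GRCm38.p6, plus strand): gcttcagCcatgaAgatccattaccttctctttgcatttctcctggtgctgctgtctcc
Defb3 start, chr8:19293364-19293410 (GRCm38.p6, plus strand): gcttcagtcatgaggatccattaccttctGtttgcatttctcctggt
Defb8 start, chr8:19447557-19447602 (GRCm38.p6, minus strand): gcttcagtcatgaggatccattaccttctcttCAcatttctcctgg
Defb7 start, chr8:19495099-19495146 (GRCm38.p6, plus strand): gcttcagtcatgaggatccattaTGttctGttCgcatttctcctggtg
Defb6 start, chr8:19225496-19225527 (GRCm38.p6, plus strand): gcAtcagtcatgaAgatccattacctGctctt

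The closest match by number of bases was not Defb3, but the windows hold unequal lengths of the probe. Defb46 was identical at 58 of 59 bases (98.3%), with the substitution G54C, and Defb5 at 57 of 59 bases (96.6%). Defb3 itself was identical at 46 of the 47 bases inside its window (97.9%), with C30G. Defb4 had no window in this search, so its likeness to the probe was not tested. Defb8 was identical at 44 of 46 bases, Defb7 at 44 of 48 and Defb6 at 29 of 32. For Defb3, Defb8, Defb7 and Defb6 the rest of the probe lies beyond the end of the window and could not be compared. Defb5, Defb7 and Defb8 have probes of their own, none of which cleared background, with mean log2 ratios of 0.01, 0.20 and 0.04. Defb46 has no probe here. The part of Defb6 transcripts in the value of the Defb3 probe was not tested.

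Defb14 (NM_183026), the mouse gene most like human beta-defensin 3, did not clear background in either channel by the program's stricter mark. Its processed signal on array 1 was 192 in the transgenic channel and 90.2 in the control channel. Array 1 gave a log2 ratio of 1.09 and array 2 one of 2.28, a mean of 1.69. No fold is given, since neither channel was well above background. Both arrays were past 2-fold, but they differed from each other by 1.19 log2 units, more than those of any other antimicrobial gene measured here. The scanner's mean intensities of the spot were 47.8 in the transgenic and 53.7 in the control channel, each beside a local background of 35. With array 1 corrected by normexp and loess, the log2 ratio on that array was 0.15 and the mean was 1.22. Of the 27826 probes that cleared background in no channel, 0.18% were 2-fold higher on both arrays and 0.0755% lower. The ratio has no call here, because the filter leaves the gene out. The probes of Defb14 and Defb6 both hold the end of the coding region, where the last cysteines of the peptide are encoded. They are shown because they lie at the other end of the coding region from the Defb3 probe. The search of start regions reached only 50 bases past each start site, so it was no test of their specificity. Capitals mark the run CTGCCG that both hold.
Defb14 probe, chr8:19195129-19195188 (mm8, plus strand): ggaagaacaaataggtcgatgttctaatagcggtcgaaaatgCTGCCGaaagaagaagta
Defb6 probe, first 30 bases, chr8:19228067-19228096 (mm8, plus strand): CTGCCGcagaaaatagataaaaggaccaag

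Defb1 (NM_007843) encodes a beta-defensin that many epithelia make without stimulation. It had 2 probes, both well above background in the transgenic channel. The brighter one had processed signals of 451 in the transgenic and 267 in the control channel of array 1, both well above background. Array 1 gave a log2 ratio of 0.76 and array 2 one of 0.32, a mean of 0.54, which did not meet the 2-fold rule. The dimmer one had signals of 370 in the transgenic and 122 in the control channel, the control one not well above background. Array 1 gave a log2 ratio of 1.60 and array 2 one of 1.31, a mean of 1.46, which met the rule. With the control at the lowest signal well above background, the dimmer probe was at least 1.87-fold higher on array 1 by the program's processed signals. With array 1 corrected by normexp and loess, the log2 ratio on that array was 0.23 at the brighter probe and 0.29 at the dimmer. Centred on the spike-ins, the brighter probe lay at 0.30 and -0.14 on the 2 arrays and the dimmer at 1.14 and 0.85, so neither was then called. The brighter probe stood for the gene, so Defb1 was not called.

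The Defb1 probes differ by 0.92 log2 units although they share 49 of 60 bases. The dimmer probe starts 11 bases further along the transcript. The ends of the pair are printed because they hold the only letters that differ, marked by capitals.
Defb1 brighter probe, first 30 bases, chr8:23260103-23260132 (mm8, plus strand): CAACTGTTGTAagagctgacagtagtttga
Defb1 dimmer probe, last 30 bases, chr8:23260144-23260173 (mm8, plus strand): aaaggacgagcgatggattGTAAAATTAGT

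Before the program's corrections, the channels of each Defb1 probe were nearly level. The scanner's mean intensity of the brighter probe was 62.3 in the transgenic and 63.2 in the control channel, and that of the dimmer probe 60.2 in the transgenic and 58.3 in the control channel. Local backgrounds were 33 and 34 at the brighter probe and 36 in both channels at the dimmer one. Per the file header, negative control spots had a mean net signal of 36.8 in the transgenic and 49.8 in the control channel of this array. The ratio of these dim spots therefore rests on how each channel's background was taken off.

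**Figure D2:**
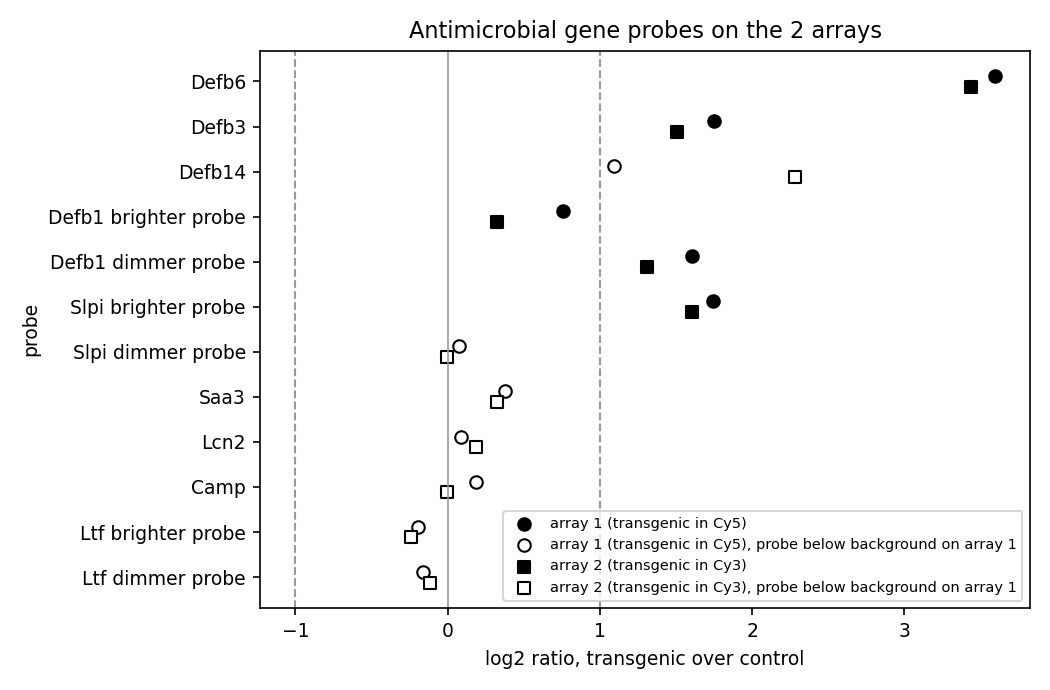
Log2 ratio of transgenic over control for each of the 12 probes, with array 1 as circles and array 2 as squares, filled where the probe cleared background in at least 1 channel of array 1. Dashed lines mark 2-fold. Defb6 lies at 3.59 and 3.44, and the probes of Saa3, Lcn2, Camp and Ltf lie between -0.24 and 0.38.

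Slpi (NM_011414), whose product protects tissue from neutrophil elastase and has antimicrobial activity of its own, had 2 probes. The brighter one lies at chr2:164045554-164045613 (mm8, minus strand). Its processed signal was 287 in the transgenic channel and 85.7 in the control channel of array 1, and only the transgenic one was well above background. The scanner's mean intensities of the spot were 55.3 in the transgenic and 52.7 in the control channel, each beside a local background of 36. The ratio of this dim spot also rests on how each channel's background was taken off. Array 1 gave a log2 ratio of 1.75 and array 2 one of 1.60, a mean of 1.67. With the control at the lowest signal well above background it was at least 1.45-fold higher on array 1 by the program's processed signals. With array 1 corrected by normexp and loess the log2 ratio on that array was 0.33, the mean was 0.97 and the call was lost. On the spike-in scale the mean was 1.21 and the call was kept. The other probe lies at chr2:164050768-164050827 (mm8, minus strand), and its signals of 96.4 in the transgenic and 91.7 in the control channel did not clear background. Its log2 ratios were 0.07 and -0.0050. The 2 probes start 5214 bases apart in the array design, while RefSeq gives the Slpi gene a length of 2438 bases on GRCm38.p6. Whether the dim probe lies within the Slpi transcript was not tested, since no genome of the array's build was used here.

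Lcn2 (NM_008491), Camp (NM_009921), Saa3 (NM_011315) and Ltf (NM_008522) were not detectable at this signal. Lcn2 had processed signals of 105 in the transgenic and 99.2 in the control channel of array 1. Camp had 105 in the transgenic and 92.6 in the control channel. Saa3 had 115 in the transgenic and 88.4 in the control channel, and the brighter Ltf probe had 103 in the transgenic and 118 in the control channel. These signals all lay below the lowest ones well above background, 190 in the transgenic and 198 in the control channel. The log2 ratios on the 2 arrays were 0.09 and 0.19 for Lcn2. Those of Camp were 0.19 and -0.0039, and those of Saa3 0.38 and 0.32. The brighter Ltf probe gave -0.19 and -0.24, and the dimmer one -0.16 and -0.12. Of the probes that cleared no channel, 2.5% had a mean ratio below -0.50 and as many one above 0.54, and these values lay between those bounds. No fold is given, since both channels are at background. The Saa3 probe is also annotated with NM_009117, the accession of Saa1.

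**Figure D3:**
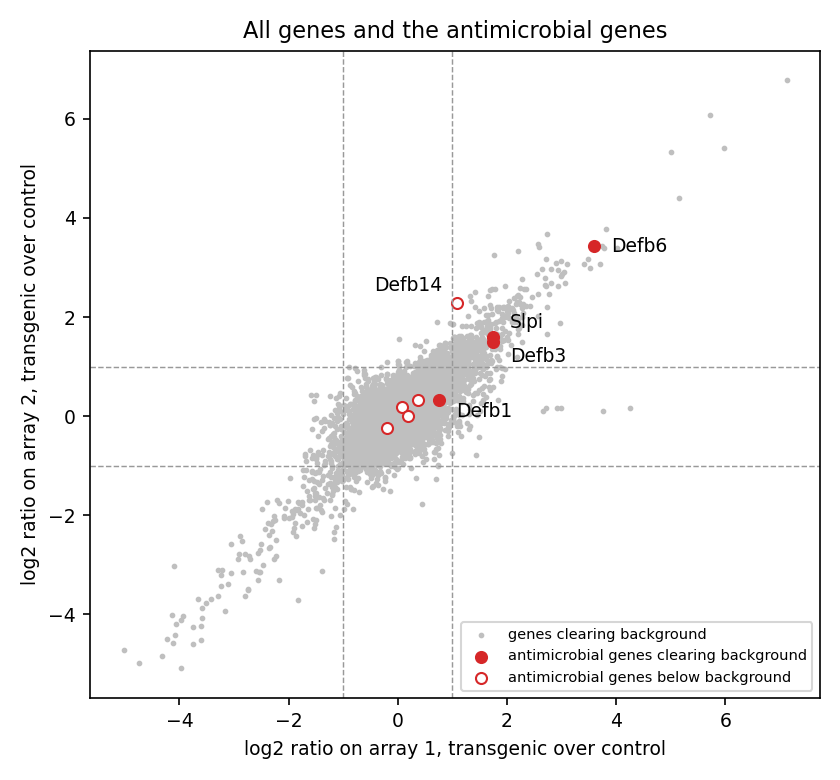
Log2 ratio of transgenic over control on array 1 (x axis) and array 2 (y axis) for the genes that cleared background (grey) and the antimicrobial genes (red, open where the probe did not clear background). Defb6 lies toward the upper right at 3.59 and 3.44, Slpi and Defb3 lie close together past 2-fold, and Defb14 is the antimicrobial gene farthest from the diagonal.

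Along chromosome 8, the probes that cleared background lay among probes that did not. The probes of Defb14, Defb6 and Defb3 fall within 98.2 kb of each other on mm8. Between Defb6 and Defb3 lies the probe of Defb5, whose mean log2 ratio was 0.01 with signals at background. Within 500 kb of the Defb14 probe the array holds 12 beta-defensin genes, and 9 of them are not among the 10 genes described here. None (0) of those 9 cleared background, and their mean ratios ran from -0.12 to 0.30. The Defb1 probe lies 4.06 Mb further on, in a second group. Over the whole array, 24 of 38 other beta-defensins on a fixed list had a probe, and 0 of these cleared background. The highest signals among the probes of these 24 genes were 123 in the transgenic and 111 in the control channel.

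**Figure D4:**
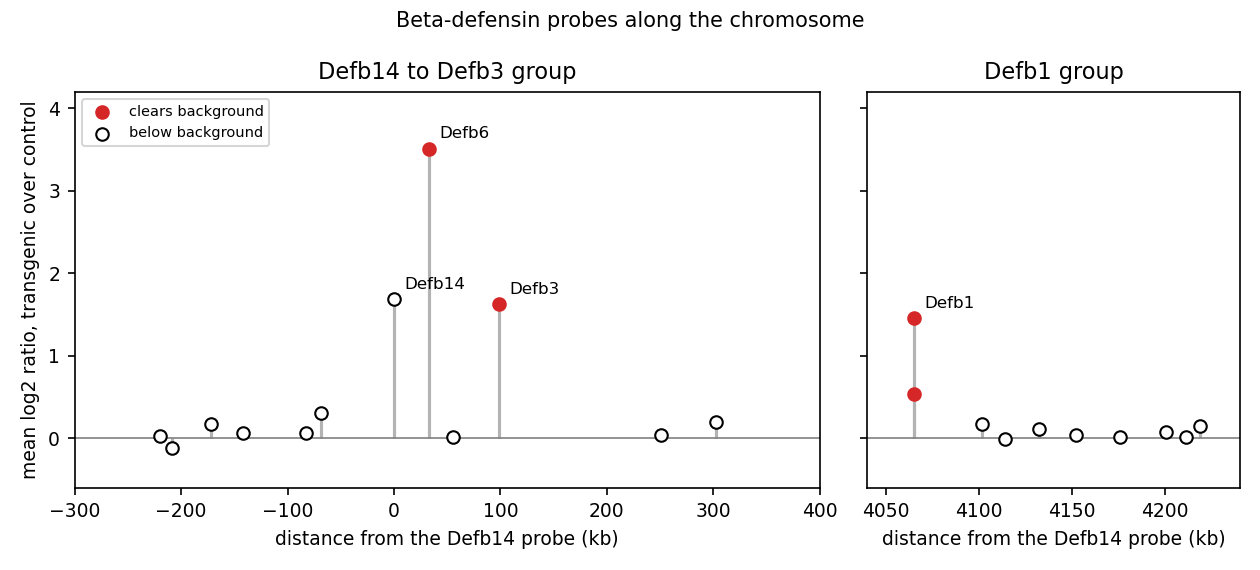
Mean log2 ratio of transgenic over control for each beta-defensin probe on chromosome 8, by distance from the Defb14 probe in kb, in 2 panels for the 2 groups of genes. Red points cleared background and open points did not. Defb6 at 3.51, the Defb3 probe at 1.63 and the Defb1 probes at 0.54 and 1.46 cleared background. Defb14 at 1.69 did not, and the other probes lie near 0.

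The start regions of Defb6 and Defb3 were set side by side because the probes named for both genes were called higher. The value of the Defb3 probe is not a measure of the Defb3 gene alone, so the comparison of letters does not tie that value to this start region. RefSeq windows were found for 7 of the 10 genes (Defb3, Defb6, Slpi, Lcn2, Saa3, Camp and Ltf). The Defb6 and Defb3 windows were identical at 238 of 285 aligned bases (83.5%). The longest run they share, 60 bases long, is in capitals and begins 40 bases before the annotated start of Defb6 and 55 before that of Defb3.
Defb6 promoter, chr8:19225228-19225527 (GRCm38.p6, plus strand): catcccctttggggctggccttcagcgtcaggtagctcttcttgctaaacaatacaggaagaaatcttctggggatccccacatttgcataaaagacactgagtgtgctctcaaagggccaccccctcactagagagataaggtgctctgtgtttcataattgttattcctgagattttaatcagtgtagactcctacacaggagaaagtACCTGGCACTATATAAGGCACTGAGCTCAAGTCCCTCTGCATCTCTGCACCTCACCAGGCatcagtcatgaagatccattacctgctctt
Defb3 promoter, chr8:19293111-19293410 (GRCm38.p6, plus strand): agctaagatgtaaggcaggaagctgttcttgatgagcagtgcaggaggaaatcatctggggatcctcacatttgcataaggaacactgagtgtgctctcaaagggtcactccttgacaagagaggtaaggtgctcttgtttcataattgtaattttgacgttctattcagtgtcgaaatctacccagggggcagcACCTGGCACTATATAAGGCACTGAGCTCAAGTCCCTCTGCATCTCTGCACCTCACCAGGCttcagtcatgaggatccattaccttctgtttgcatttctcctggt

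The likeness of these windows was not particular to the pair. Counted as shared stretches of 12 bases, the Defb3 window held 117 in common with that of Defb8, 90 with Defb46, 83 with Defb7 and 67 with Defb6. The probes named for Defb8 and Defb7 did not clear background, while the Defb3 probe is also annotated with a Defb8 accession. Whether likeness of the windows bears on any of these values was not tested. Both strands of the windows were searched for a few motifs. The letters TATATAA were present in the Defb6 and Defb3 windows, inside the shared run, and in 3.24% of all 32851 windows. The C/EBP motif TTGCNNAA was present in 6 of the 7 windows (not in that of Camp) and in 10.8% of all windows. The NF-kB consensus was present in the Defb6 and Camp windows, against 8.46% of all. The AP-1 motif TGANTCA and the STAT motif TTCNNNGAA were in none (0) of the 7, against 7.81% and 8.30% of all windows. A match here is a description of letters and shows no binding.

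Other antimicrobial proteins on a fixed list were measured for 8 of 30 genes with a probe, and 5 of the 8 were called higher and 0 lower. Over all genes that cleared background, 3.73% were called higher and 1.68% lower. The median log2 ratio was 1.27 over the 8 genes and 0.19 over all 30, and S100a8 entered through the transgenic channel alone. S100a9 and S100a8, the subunits of calprotectin, which withholds metal ions from microbes, had means of 6.95 and 5.90. The control signal of S100a8, 99.5 beside a transgenic signal of 5253, did not clear background, which makes its array 1 ratio at least 26.5-fold. Both are made by neutrophils as well as by activated keratinocytes. Retnla, a resistin-like secreted protein, had a mean of 1.56, and Lyz1, a lysozyme, one of 1.30. Lyz1 shares sequence with Lyz2, so the probe may read both. Lyz2, also on the macrophage list, was the fifth gene called, with a mean of 1.23. Centred on the spike-ins, 3 of the 5 remained called, namely S100a9, S100a8 and Retnla.

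The whey acidic protein family, to which Slpi belongs, did not move together. Of 15 genes with a probe 5 cleared background, of which 1 was called higher and 1 lower, with a median of -0.055. The shares over all genes that cleared background were 3.73% higher and 1.68% lower. Wfdc18 had the largest ratio, with log2 values of -2.53 and -2.70 on the 2 arrays. Its transgenic signal of 181 was not well above background, beside a control signal of 1047, so it was at least 5.51-fold lower on array 1. Wfdc17 was called higher, with a mean of 1.16 and a control signal that was not well above background. On the spike-in scale it lay at 0.70 and was not called, so 0 genes of the family were then higher. Wfdc3 and Wfdc21 lay at -0.44 and 0.10 and were not called.

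Serum amyloid A and acute phase genes were measured for 9 of 19 genes with a probe, and 3 were called higher and 0 lower, beside the same 3.73% and 1.68% over all genes. The median log2 ratio was 1.14 over the 9 genes and 0.45 over all 19, and Orm2 entered through the transgenic channel alone. Orm2, an orosomucoid, had a mean of 1.43, Cp, which encodes ceruloplasmin, 1.33 and Serpina3g, a protease inhibitor, 1.32. Serpina3m lay at 1.18 but met 2-fold on array 1 only. Centred on the spike-ins, 0 of the 9 were called higher. Saa1, the acute phase relative of Saa3, had signals of 545 in the transgenic and 503 in the control channel at its brighter probe, with log2 ratios of 0.12 and 0.32. A second Saa1 probe was at background, with signals of 116 in the transgenic and 100.1 in the control channel, as was the Saa3 probe that also carries a Saa1 accession. The Saa1 probes thus differ on whether its RNA was detected.

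The next list held inducers and sensors of antimicrobial genes, and also the chemokine receptor Ccr2. On it, 18 of 37 genes with a probe cleared background. Of these 4 were called higher and 0 lower, beside 3.73% and 1.68% over all genes. Ccr2 and Nod2 entered through the transgenic channel alone, where 26% of all genes were called higher and 0% lower. The median log2 ratio was 0.57 over the 18 genes and 0.25 over all 37. Nfkbiz, a nuclear co-regulator through which interleukin-17 induces such genes, had log2 ratios of 2.19 and 1.90. Its signals on array 1 were 1640 in the transgenic and 359 in the control channel, both well above background. Ccr2, a chemokine receptor of monocytes, had a mean of 2.10, with an array 1 ratio of at least 2.48-fold. Nod2, a sensor of bacterial wall fragments, had a mean of 1.29 (at least 1.53-fold on array 1), and the transcription factor Cebpd one of 1.21. Centred on the spike-ins, Ccr2 and Nfkbiz kept the call while Nod2 and Cebpd lost it. Il17a, Il22 and Il1b, named here after their values were seen, did not clear background at any probe. Their transgenic signals at the brightest probe were 101, 107 and 119, against control signals of 88.8, 87.4 and 87.1. The cytokines themselves were therefore not detectable at this signal.

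Proteases that cleave antimicrobial peptides or are held back by Slpi, with their inhibitors, were measured for 9 of 15 genes. Of the 9, 2 were called higher and 0 lower, beside 3.73% and 1.68% over all genes, and the median was 0.14. Klk6, a kallikrein-related protease, had a mean of 2.20, with an array 1 ratio of at least 3.64-fold. It entered through the transgenic channel alone, where 26% of all genes were called higher. Klk8 had a mean of 1.03, and lost the call when centred on the spike-ins. Klk7, a protease of the stratum corneum, lay at 0.63. St14, which encodes matriptase, lay at -1.23 and -0.86 on the 2 arrays and was not called. On the spike-in scale its mean was -1.51 and it was called lower.

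Markers of cells that can hold these transcripts were read beside them. Of 20 neutrophil genes 18 had a probe, and only Il1r2 cleared background, with a mean of -0.083. Signals summed over the 18 probes were 2462 in the transgenic and 2494 in the control channel of array 1, of which Il1r2 gave 631 and 684. The granule gene Ngp had signals of 87.3 in the transgenic and 89.6 in the control channel, and Mpo, which encodes myeloperoxidase, had 119 in the transgenic and 109 in the control channel. Defining neutrophil genes were thus at background, as were Camp, Lcn2 and Ltf. Of 14 macrophage genes with a probe 10 cleared background. Of the 10, 4 were called higher and 0 lower, beside 3.73% and 1.68% over all genes that cleared background. Signals summed over the 14 were 30791 in the transgenic and 13671 in the control channel, of which Lyz2 gave 22467 and 9424. Mpeg1, which encodes perforin-2 of macrophages, had a mean of 1.65 with a control signal that was not well above background, and Adgre1, the F4/80 antigen, one of 1.31. A second Adgre1 probe did not clear background and had a mean of 0.07. Like Mpeg1, C1qa entered through the transgenic channel alone, where 26% of all genes were called higher.

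Keratinocyte and fat markers also differed in places. Each count below is to be read beside the share over all genes that cleared background, 3.73% called higher and 1.68% lower. Of 9 basal and 9 suprabasal keratinocyte genes measured, 1 each was called higher, Krt14 with a mean of 1.12 and Krt1 with 2.26. A second Krt1 probe did not clear background and gave log2 ratios of 0.06 and -1.08 on the 2 arrays. Summed signals were 258509 in the transgenic and 191738 in the control channel for basal genes. For suprabasal genes they were 340289 in the transgenic and 213993 in the control channel. Of the 4 keratins of activated epidermis, Krt16 was called higher with a mean of 3.38, and Krt6a, Krt17 and Krt6b lay at 0.53, 0.07 and -0.070. Adipocyte genes, of interest because fat cells can express Saa3, were called higher in 7 of 11 measured, with Cfd at 2.08 and Cidec at 1.83. Saa3 itself stayed at background. Sebaceous genes were called higher in 6 of 7, fibroblast genes in 0 of 8, and among mammary and salivary genes Amy1 was called, with a mean of 1.21. Centred on the spike-ins, the calls higher were 1 for macrophage, 3 for adipocyte and 5 for sebaceous genes, Krt1 and Krt16 kept theirs, and Krt14, Adgre1 and Amy1 lost theirs. The part of these cell types in the values of Defb6, Defb3 and Slpi was not tested.

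**Figure D5:**
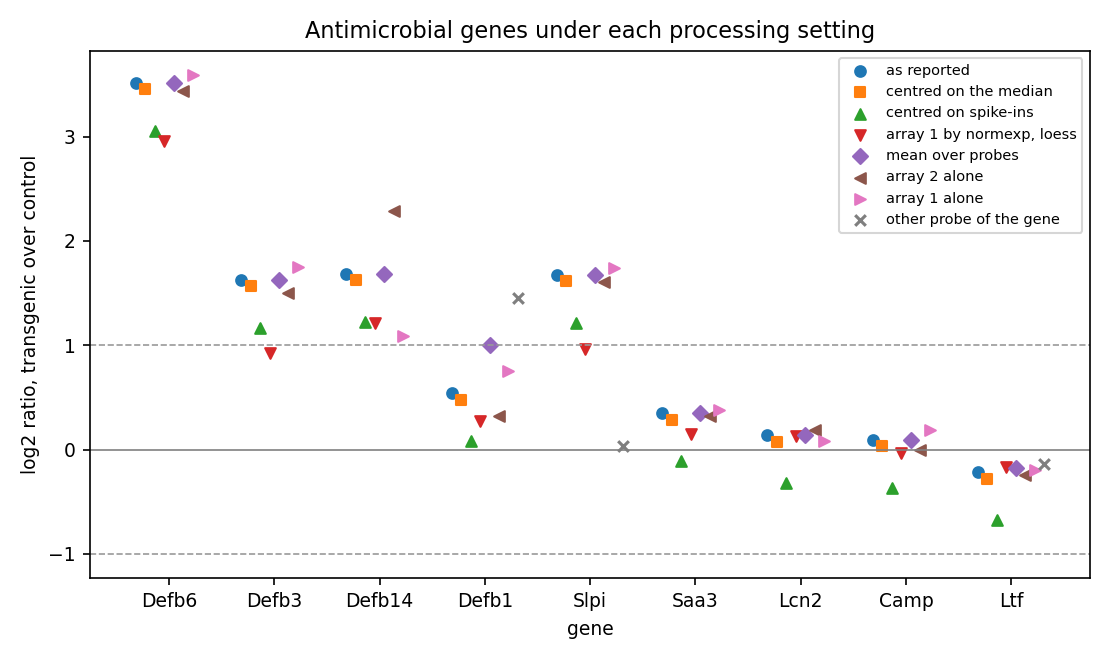
Log2 ratio of transgenic over control (y axis) for each antimicrobial gene with a probe (x axis) under each processing setting, one marker per setting, with dashed lines at 2-fold. Defb6 stays between 2.96 and 3.59, while Defb3 and Slpi fall to 0.92 and 0.97 with array 1 corrected by normexp and loess.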

How the data were processed

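The authors' scanner output of array 1 gives spot intensity in 2 channels, which Agilent Feature Extraction 9.5.1.1, per the file headers, corrected for background, detrended, dye-normalised and replaced by surrogates where dim. Surrogates compress ratios near background. The deposited value table holds a log10 ratio per array. On array 1, all 43790 features matched the log10 ratio of the processed Cy5 and Cy3 signals to within 5.00e-10. Array 2's scanner output was not used here, so its background marks are unknown. Its direction follows the labels' dyes (Pearson r of -0.58 between the columns as deposited), and the scale was taken to be that of array 1. The column medians were 0.0145 and -0.0243, so neither was centred. The program's p-value, deposited per the file headers, describes 1 spot and was not used.

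Values were turned to log2 transgenic over control and averaged over the arrays. Control spots and 29 outlier spots were left out. Probes were named through RefSeq (GRCm38.p6) with 24370 matched on the accession, 6300 on a symbol and 2425 on a synonym; for 8072 the design's own name stands. The brightest probe stood for a gene. A gene "cleared background" if array 1 marked that probe as well above background in either channel. A fold given as "at least" divides the bright signal by the higher of the dim channel's own signal and its lowest signal well above background. Such a fold comes from array 1 alone and rests on the program's processed signals. Dye bias or another background correction can move it, also below the stated value. Probes printed 10 times had a median SD of 0.09 (array 1) and 0.10 (array 2) log2 units. The number of arrays limits the precision. No spot other than controls (0) was saturated on array 1. Probe coordinates come from the file headers' annotation, which names mm8.

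The genes and lists were chosen with earlier results of these data known. All 10 genes are named, and from each list up to 4 genes with the largest mean ratio among those clearing background. Alternatives were other filters, scalings, probes and single arrays, and normexp (offset 50) with loess in limma 3.58.1 under R 4.3.3. Other values came from Python 3.11.15 with pandas 2.3.3.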

Additional observations from a re-analysis of the deposited data

How the results depend on the processing

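No paired analysis was possible because the result comes from no test and each genotype is 1 pool. Of the genes that cleared background, the count called higher among the antimicrobial genes was 3, and it was 1 (Defb6) with array 1 by normexp and loess and 1 when both channels had to clear background. Their median log2 ratio was 1.65, and it was 0.95 with normexp and loess, 1.19 when centred on the spike-ins, 0.54 with no filter on dim probes (9 genes) and 2.03 over the 2 genes clear in both channels. The filter settings differ by construction in which genes they hold, and the cause of the other shifts was not tested. Over all genes 390 were higher and 176 lower. Normexp and loess gave 107 and 56, spike-in centring 175 and 457, and probes clear in both channels 243 and 86. From 1 array alone, 520 to 570 genes were higher and 259 to 274 lower. Signs turned only for genes at background: Camp lay at -0.031 with normexp and loess, -0.37 centred on the spike-ins and between -0.0039 and 0.19 on 1 array alone, and Lcn2 and Saa3 lay at -0.32 and -0.11 centred on the spike-ins. Taking the other probe of a gene, which was chosen as an alternative once the data had been seen, resulted in 1.46 for Defb1, which was then called, and 0.03 for Slpi, which was not. Defb14 was called with no filter on dim probes, on the program's own signals, while normexp and loess gave array 1 a log2 ratio of 0.15.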

Other observations

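Of the 123 genes on all lists whose brightest probe cleared background in no channel, 4 were nevertheless 2-fold apart the same way on both arrays, 3 higher and 1 lower. Over all 27826 probes that cleared background in no channel, 0.18% were 2-fold higher on both arrays and 0.0755% lower. These 4 genes were picked after their values were seen. Beside Defb14 they were Ccr6, a chemokine receptor that binds some beta-defensins as well as the chemokine Ccl20, with log2 ratios of 1.40 and 1.39, and Chga, which encodes the precursor of antimicrobial chromogranin peptides, with 1.35 and 1.38. Ccr6 had signals of 226 in the transgenic and 85.6 in the control channel of array 1. Wfdc2, a whey acidic protein relative of Slpi, lay at -1.12 and -1.08, with signals of 98.4 in the transgenic and 213 in the control channel.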
